A study of Mus musculus with 6 samples.

Results

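The genes described here are the CC chemokines and their receptors of mouse skin, taken as every row of the deposited expression table with a Ccl or Ccr gene symbol plus Ccrl2. There were 35 such genes among the 35434 in the table, 24 ligands and 11 receptors. Of these, 25 (18 ligands and 7 receptors) reached 0.5 FPKM or more in 3 or more of the 6 libraries and entered the test. FPKM scales the fragments of a gene by its length and by sequencing depth, so levels can be compared between genes. Just inside that limit lay Ccl17 (0.296 to 0.677 FPKM over the libraries), Ccr4 (0.344 to 0.697) and Ccr9 (0.378 to 0.917). Just outside it lay Ccr3 (0.195 to 0.939 FPKM), Ccl25 (0.372 to 0.641) and Ccr6 (0.277 to 0.525).

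RNA was sequenced from the skin lesions of psoriasis mice after transfer of regulatory T cells (Tregs). The Lenv-Treg group (3 libraries) was given Tregs treated with lenvatinib, an inhibitor of VEGF, FGF and other receptor tyrosine kinases, and the Ctrl-Treg group (3 libraries) was given control Tregs. All animals were thus diseased and all had received Tregs, and no group without transferred cells was analysed here. Strain, sex, age, the agent that induced the disease, the dose of cells and whether each library came from a separate mouse were not stated in the labels, so p-values measure only the spread between these libraries, which may be technical. The tissue is bulk skin in which the recipients' own leukocytes are present, and fewer cells of a type and less RNA per cell cannot be told apart.

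CC chemokines are small secreted proteins with an adjacent pair of cysteines. They bind to glycosaminoglycans on vessels and matrix and act on seven-helix receptors that couple to inhibitory G proteins, which makes leukocytes move towards the source. In psoriatic skin the best known pair is CCL20 and CCR6, through which keratinocytes attract IL-17-producing T cells, while the ligands of CCR1 and CCR2 bring in monocytes and neutrophils. CCR7 and its ligands guide dendritic cells to lymphatics, and CCR4, CCR8 and CCR10 serve the homing of T cells to skin.

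Depth was close in all libraries: the Lenv-Treg ones held 39247638 to 39865496 recovered reads and the Ctrl-Treg ones 38324747 to 39822752. The summed level of 10 keratinocyte markers was 11943 to 14517 FPKM in Lenv-Treg and 5548 to 8132 FPKM in Ctrl-Treg, so the tissue had the expression of epidermis in every library. Of these 10 markers only 3 rose and 2 fell in Lenv-Treg, with a median difference of -0.03 in log2(FPKM + 1), so the sum does not describe them all. The groups differed in other cell markers as well. Over all tested genes 11.0% were higher and 30.8% lower, and marker counts here and below are to be read beside these shares. Of 10 tested neutrophil markers 9 rose and 0 fell in Lenv-Treg, with a summed level over 14 genes of 338 to 646 FPKM in Lenv-Treg and 15.8 to 34 FPKM in Ctrl-Treg. Of 16 monocyte and macrophage markers 8 rose and 1 fell (3983 to 4467 FPKM in Lenv-Treg and 2569 to 3299 FPKM in Ctrl-Treg). Of 13 tested Langerhans and dendritic cell markers 0 rose and 7 fell (774 to 1312 FPKM in Lenv-Treg and 1569.9 to 1884 FPKM in Ctrl-Treg). None of the marker genes measured on these 3 lists was at 0 in all libraries. Markers here and below may have entered the test through the libraries of the higher group alone, which favours a call in that direction. This was not checked.

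Among the 25 tested members, 13 rose in Lenv-Treg and 3 fell, while 9 did not pass (limma with Benjamini-Hochberg adjustment over all 13945 tested genes, threshold 0.05). Over all tested genes 11.0% were higher and 30.8% lower, 41.7% in either direction. The median difference was 0.94 over the 25 members and -0.17 over all tested genes, on the log2(FPKM + 1) scale that is used for every difference below. All 13 members that rose were above 0.5 FPKM in each of the 6 libraries, so the limit on low values did not select them by group. The groups did not overlap for 17 of the 25 members (68.0%), against 55.4% of all tested genes. Scaling to equal medians of ratios brought the median of all genes to 0.00, and then 14 members were higher and 1 was lower, against 2417 and 2417 of all genes. With values rescaled to TPM the median of all genes was -0.44, and 13 members were higher and 5 lower, against 947 and 7970 of all genes. With no limit on low values, 11 of the 33 members with reads were higher and 1 was lower, against 5.77% and 16.0% of 25667 genes. The calls lost there were those of Ccl7 (adjusted p = 0.0617), Ccl24 (0.0595), Ccl1 (0.107) and Ccl19 (0.0956).

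**Figure D1:**
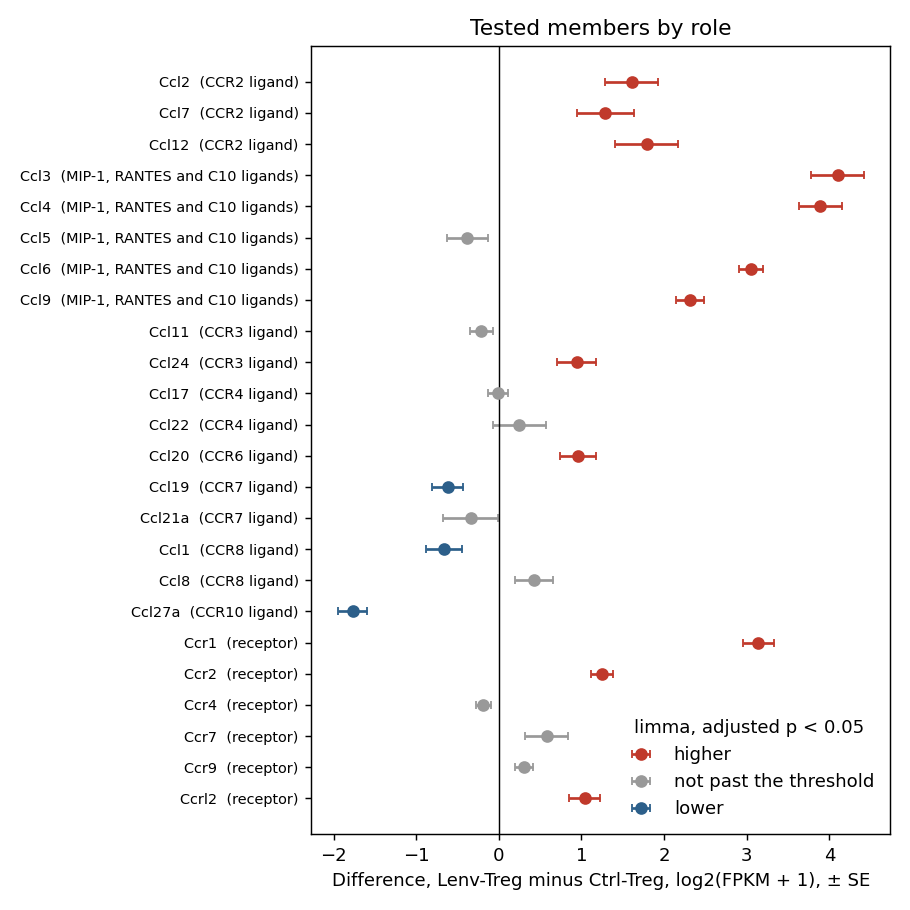
Difference between Lenv-Treg and Ctrl-Treg for 24 of the 25 tested members, in log2(FPKM + 1) on the x axis, with bars for the standard error of limma's fit and the receptor or group of each ligand in parentheses. The 4 largest differences are those of Ccl3, Ccl4, Ccr1 and Ccl6, between 3.05 and 4.10, and Ccl27a is lowest at -1.77.

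The largest increases among the ligands were in inflammatory chemokines of the MIP-1 kind, which attract monocytes, neutrophils and effector T cells. Ccl3, also called MIP-1 alpha, was at 32.8, 76.9 and 56.2 FPKM in Lenv-Treg libraries and at 3.24, 1.58 and 1.73 FPKM in Ctrl-Treg libraries. The lowest Lenv-Treg library was thus far above the highest Ctrl-Treg library, and the fold of the means was 25.3 (difference 4.10, SE 0.32, adjusted p = 0.000135). Ccl3 rested on 205 reads in the Ctrl-Treg libraries together, and on no fewer than 49 in any library. Ccl4 (MIP-1 beta) was at 32.1, 66.4 and 52.4 FPKM in Lenv-Treg and at 3.20, 1.97 and 1.96 FPKM in Ctrl-Treg, a fold of 21.2 (difference 3.89, SE 0.26). Both genes had their highest Lenv-Treg value in replicate 2 and their highest Ctrl-Treg value in replicate 1.

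Ccl6 and Ccl9, CCR1 ligands of rodents made by myeloid cells, also rose and were abundant in both groups. Ccl6 was at 746, 1026 and 966 FPKM in Lenv-Treg and at 115, 106 and 104 FPKM in Ctrl-Treg. Its groups lay far apart with little spread inside each, and it had the smallest adjusted p of the family (8.43-fold, difference 3.05, SE 0.15, adjusted p = 3.09e-05). Ccl9 was at 144, 186 and 182 FPKM in Lenv-Treg and at 36.4, 26.5 and 38.7 FPKM in Ctrl-Treg (5.04-fold, difference 2.31, SE 0.17). Ccl5 (RANTES), the remaining ligand of this class and a product of T cells and NK cells as well as of interferon-stimulated cells, did not follow. It was at 11.8, 6.77 and 10.8 FPKM in Lenv-Treg and at 16.7, 13.3 and 9.28 FPKM in Ctrl-Treg, with overlapping groups (difference -0.38, SE 0.25, adjusted p = 0.243).

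All 3 CCR2 ligands, which attract monocytes, rose. Ccl2 (MCP-1) was at 56.6, 54.5 and 92.0 FPKM in Lenv-Treg and at 27.9, 12.6 and 25.7 FPKM in Ctrl-Treg, a fold of 3.07 (difference 1.61, SE 0.32, adjusted p = 0.00654). Ccl7 was at 73.8, 92.5 and 151 FPKM in Lenv-Treg and at 53.5, 25.3 and 49.4 FPKM in Ctrl-Treg, a fold of 2.47 (difference 1.29, SE 0.34, adjusted p = 0.0199). Ccl12, a mouse chemokine close to Ccl2, was at 32.7, 25.1 and 47.0 FPKM in Lenv-Treg and at 15.2, 4.67 and 10.1 FPKM in Ctrl-Treg, a fold of 3.5 (difference 1.79, SE 0.38, adjusted p = 0.00875). The 3 genes shared an order of libraries in part: each was highest in Lenv-Treg replicate 3 and lowest in Ctrl-Treg replicate 2. The call of Ccl7 ended without Lenv-Treg replicate 3 (1.00, adjusted p = 0.058; up to 0.058 over the 6 libraries left out in turn), and those of Ccl2 and Ccl12 kept their threshold without any single library.

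**Figure D2:**
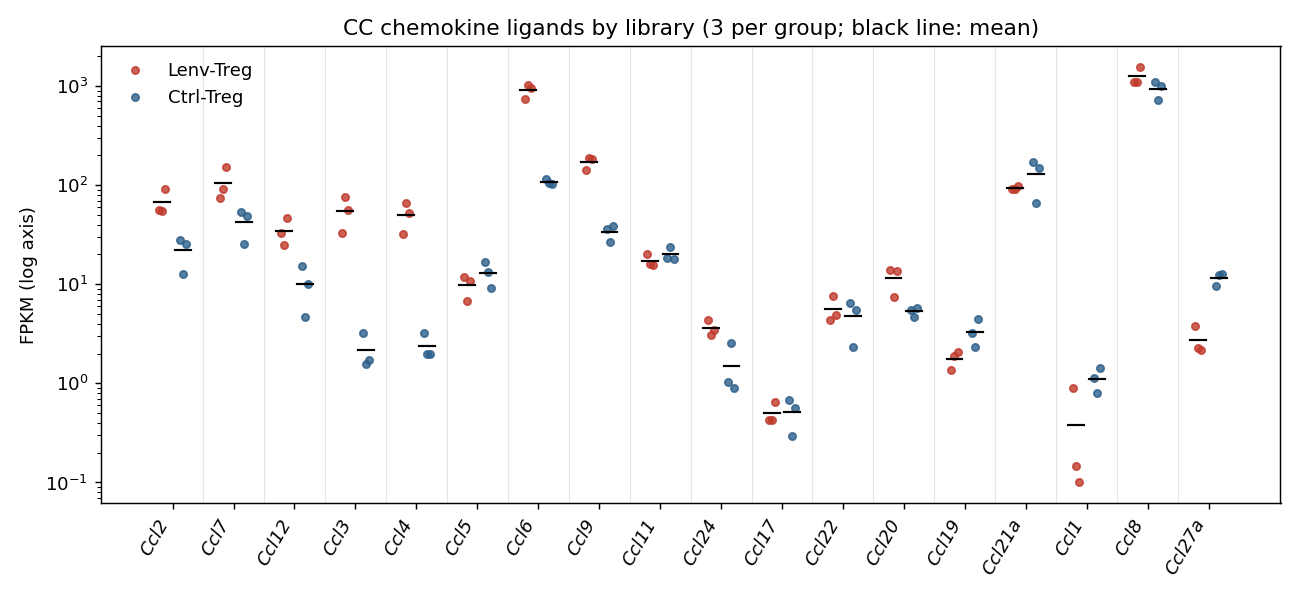
FPKM of the 18 tested ligands on a log axis, with 1 point per library, 3 per group, and a black line at the group mean. Ccl3, Ccl4, Ccl6 and Ccl9 show the widest gaps between the groups, while the points of Ccl1, Ccl5, Ccl8, Ccl11, Ccl17, Ccl21a and Ccl22 overlap.

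Ccl8 was the most abundant member in every library. In the mouse its product is an agonist of CCR8, a receptor of skin-resident and type 2 T cells. It was at 1103, 1103 and 1569 FPKM in Lenv-Treg and at 1109.5, 725 and 993 FPKM in Ctrl-Treg. The groups overlapped, since Ctrl-Treg replicate 1 lay above 2 of the Lenv-Treg libraries (difference 0.42, SE 0.23, adjusted p = 0.187). Ccl1, the other CCR8 ligand and a product of activated T cells and mast cells, went the other way at a low level. It was at 0.892, 0.148 and 0.1 FPKM in Lenv-Treg and at 1.13, 0.809 and 1.43 FPKM in Ctrl-Treg, from 2 to 28 reads per library. Thus it reached the limit of 0.5 FPKM in every Ctrl-Treg library but, in Lenv-Treg, only in replicate 1. It was called lower (difference -0.66, SE 0.22, adjusted p = 0.0454), but Lenv-Treg replicate 1 lay inside the range of the Ctrl-Treg libraries. The ratio of means was 0.338, and 0.110 without that library. The call ended without any 1 of 4 other libraries (Lenv-Treg replicates 2 and 3, Ctrl-Treg replicates 1 and 3), where adjusted p reached 0.14, and after scaling to equal medians of ratios (adjusted p = 0.0817). Of 7 mast cell markers 2 rose and 1 fell, and the mast cell sum was 261 to 409 FPKM in Lenv-Treg and 198 to 281 FPKM in Ctrl-Treg.

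Summed over the 24 ligands, Lenv-Treg libraries held 2374, 2769 and 3268 FPKM and Ctrl-Treg libraries 1599, 1032 and 1435 FPKM. The make-up of this sum differed too, without overlap for its leading genes. Ccl8 held 44.7% ± 4.35 of the summed ligand FPKM in Lenv-Treg and 69.6% ± 0.586 in Ctrl-Treg (SD, n = 3 each). Ccl6 held 32.7% ± 3.92 in Lenv-Treg and 8.25% ± 1.78 in Ctrl-Treg (SD, n = 3 each). The ratio of Ccl6 to Ccl8 within a library was 0.616 to 0.931 in Lenv-Treg libraries and 0.103 to 0.146 in Ctrl-Treg libraries, and such a ratio does not depend on how libraries are scaled. The lowest Lenv-Treg ratio was above the highest Ctrl-Treg ratio.

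**Figure D3:**
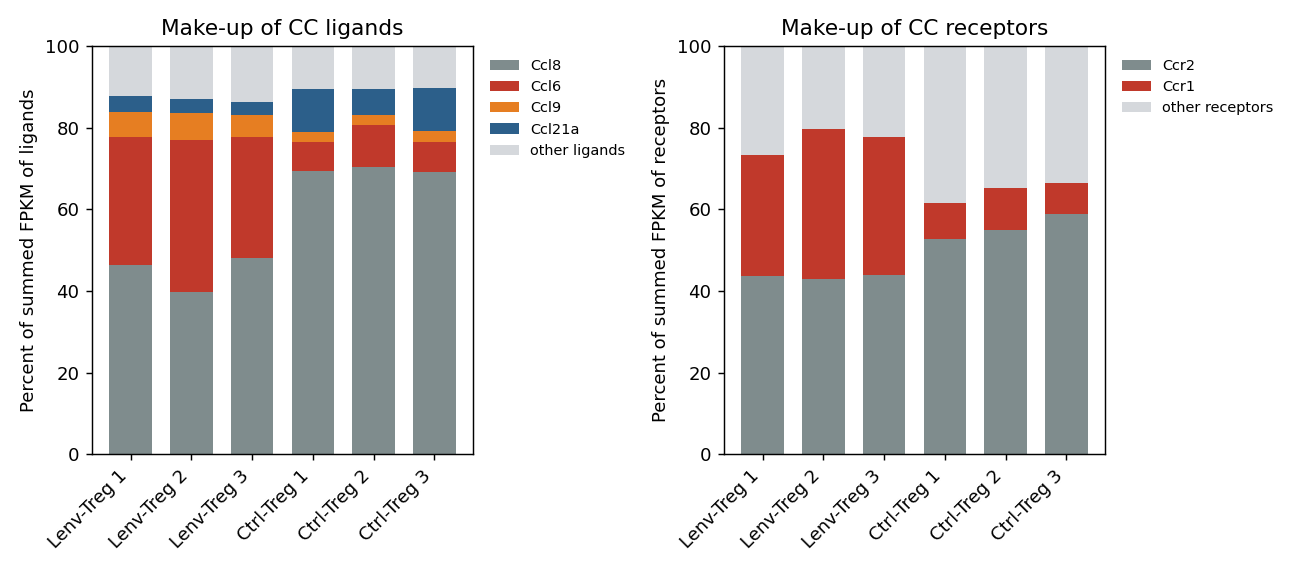
Share of each named gene in the summed FPKM of the 24 CC ligands (left) and of the 11 receptors (right), in percent, with 1 bar per library. Ccl6 takes 29.6% to 37.1% of the ligand sum in Lenv-Treg libraries and 7.17% to 10.3% in Ctrl-Treg libraries, and Ccr1 takes 29.6% to 36.8% of the receptor sum in Lenv-Treg libraries and 7.42% to 10.3% in Ctrl-Treg libraries.

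Ccl20, the CCR6 ligand made by keratinocytes, was at 14.0, 7.53 and 13.5 FPKM in Lenv-Treg and at 5.51, 4.65 and 5.80 FPKM in Ctrl-Treg. Every Lenv-Treg library lay above every Ctrl-Treg library, by little for replicate 2 (difference 0.96, SE 0.22, adjusted p = 0.0109). Ccr6, its only CC receptor and a marker of type 17 T cells, lay outside the test at 0.525, 0.386 and 0.411 FPKM in Lenv-Treg and 0.404, 0.277 and 0.371 FPKM in Ctrl-Treg, from 46 to 89 reads per library. Its groups overlapped (exact two-sided permutation p = 0.2). Of 4 tested markers of gamma delta and type 17 T cells 3 rose and 0 fell, with a summed level over 5 genes of 10.9 to 19.9 FPKM in Lenv-Treg and 5.60 to 9.74 FPKM in Ctrl-Treg, and their part in these values was not tested.

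Eosinophil-attracting ligands of CCR3 split. Ccl24 (eotaxin-2) was at 4.4, 3.06 and 3.43 FPKM in Lenv-Treg and at 1.03, 2.55 and 0.905 FPKM in Ctrl-Treg (2.42-fold, difference 0.94, SE 0.24, adjusted p = 0.018). The fold was 3.75 without Ctrl-Treg replicate 2, which stood above the other Ctrl-Treg libraries. The call ended without Lenv-Treg replicate 1 or Ctrl-Treg replicate 1 (adjusted p = 0.056 and 0.0542). Ccl11 (eotaxin-1), made by fibroblasts, was at 20.0, 16.2 and 15.6 FPKM in Lenv-Treg and at 18.5, 23.8 and 18.2 FPKM in Ctrl-Treg, with overlapping groups (difference -0.21, SE 0.14, adjusted p = 0.256). It passed as lower after rescaling to TPM (-0.50, adjusted p = 0.0385). Ccl26 was listed at 0 in all libraries. Ccr3, the eotaxin receptor, had 1 high library in each group: it was at 0.874, 0.384 and 0.195 FPKM in Lenv-Treg and at 0.939, 0.227 and 0.229 FPKM in Ctrl-Treg (exact permutation p = 1). The 5 eosinophil markers summed to 0.382 to 0.648 FPKM in Lenv-Treg and 0.547 to 1.47 FPKM in Ctrl-Treg, and 0 of them entered the test.

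The homeostatic ligands of the family were lower or did not pass. Ccl27a, the keratinocyte chemokine that draws CCR10-bearing memory T cells to skin, had the largest decrease. It was at 3.77, 2.29 and 2.17 FPKM in Lenv-Treg and at 9.71, 12.3 and 12.8 FPKM in Ctrl-Treg, with groups far apart (ratio of means 0.236, difference -1.77, SE 0.18, adjusted p = 0.000386). In a mouse annotation of another build, exons of Ccl27a overlap those of Il11ra1 on the opposite strand, and whether reads were counted by strand is not given, so reads of these genes may not be told apart. Il11ra1, an IL-11 receptor subunit, was also lower, at 41.9 ± 8.97 FPKM in Lenv-Treg and 93.4 ± 21.9 FPKM in Ctrl-Treg (SD, n = 3 each, difference -1.13). On the log2 scale this was a smaller decrease than that of Ccl27a, but Il11ra1 held far more reads. It had 9853 in the Lenv-Treg libraries together and 21569 in the Ctrl-Treg ones, against 432 and 1799 for Ccl27a. The part of Il11ra1 reads in the values of Ccl27a was not tested. Ccl28, the other CCR10 ligand, lay outside the test at 0.0645, 0.0175 and 0.0651 FPKM in Lenv-Treg and 0.279, 0.0898 and 0.0727 FPKM in Ctrl-Treg. Its groups did not overlap, but it rested on 3 to 48 reads per library (exact permutation p = 0.1, the smallest that 3 against 3 libraries allow; adjusted p = 0.275 in limma with no limit on low values). Ccr10 was at 0.0293 to 0.0864 FPKM in Lenv-Treg and 0.0449 to 0.163 FPKM in Ctrl-Treg, from 2 to 11 reads per library. Markers of skin structures moved in the same libraries, with 10 of 10 hair follicle genes lower (summed level 7.24 to 22.5 FPKM in Lenv-Treg and 1401 to 3029 FPKM in Ctrl-Treg) and 3 of 10 keratinocyte genes higher and 2 lower. Their part in the decrease of Ccl27a was not tested.

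CCR7 ligands bring dendritic cells and naive T cells to lymphatics and lymph nodes. Ccl19 was at 1.35, 1.90 and 2.09 FPKM in Lenv-Treg and at 3.24, 2.32 and 4.42 FPKM in Ctrl-Treg, without overlap (ratio of means 0.535, difference -0.62, SE 0.19, adjusted p = 0.0356). That call ended without any library but Ctrl-Treg replicate 2 (adjusted p 0.0538 to 0.1 without each of the others) and after scaling to equal medians of ratios (-0.47, adjusted p = 0.103). Ccl21a, made by lymphatic endothelium, was at 91.5, 91.7 and 98.2 FPKM in Lenv-Treg and at 172, 65.4 and 149 FPKM in Ctrl-Treg. The Lenv-Treg values lay between those of the Ctrl-Treg libraries and it did not pass (difference -0.34, SE 0.33, adjusted p = 0.43). Without Ctrl-Treg replicate 2, which was well below the others, it was lower (-0.77, adjusted p = 0.00466). The Ccl21 copies are near-identical in sequence, so their split is uncertain: Ccl21b was at 0 to 0.0552 FPKM in Lenv-Treg and 0.0184 to 0.0892 FPKM in Ctrl-Treg, and Ccl21d was listed at 0. Of 6 tested lymphatic endothelial markers 1 rose and 1 fell, with a summed level over 7 genes of 96.8 to 123 FPKM in Lenv-Treg and 51.6 to 70.6 FPKM in Ctrl-Treg. Of 7 fibroblast markers 0 rose and 4 fell (2438 to 3463 FPKM in Lenv-Treg and 4545 to 5714 FPKM in Ctrl-Treg), and the part of these cells and of dendritic cells in the values of Ccl19 was not tested.

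The CCR4 ligands Ccl17 and Ccl22, which dendritic cells and macrophages make to attract type 2 and regulatory T cells, did not pass. Ccl22 was at 4.39, 7.61 and 4.87 FPKM in Lenv-Treg and at 6.54, 2.33 and 5.51 FPKM in Ctrl-Treg (difference 0.25, SE 0.32, adjusted p = 0.557). Ccl17 averaged 0.501 ± 0.132 FPKM in Lenv-Treg and 0.512 ± 0.196 FPKM in Ctrl-Treg (SD, n = 3 each, adjusted p = 0.973). Ccl25, the CCR9 ligand of gut and thymus, averaged 0.463 ± 0.155 FPKM in Lenv-Treg and 0.431 ± 0.0569 FPKM in Ctrl-Treg (SD, n = 3 each). Ccl27b, a copy of Ccl27a, stayed at or below 0.0420 FPKM in all libraries, from at most 6 reads.

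Ccr1 and Ccr2 rose. Ccr1, which binds Ccl3, Ccl5, Ccl6 and Ccl9 and is carried by neutrophils and monocytes, was at 21.7, 36.5 and 32.1 FPKM in Lenv-Treg and at 2.75, 2.71 and 1.98 FPKM in Ctrl-Treg. Its fold of 12.2 was the largest of the receptors (difference 3.14, SE 0.19, adjusted p = 6.21e-05). Ccr2, the receptor of inflammatory monocytes, was at 32.0, 42.4 and 41.5 FPKM in Lenv-Treg and at 16.5, 14.4 and 15.7 FPKM in Ctrl-Treg (2.49-fold, difference 1.25, SE 0.13). For both receptors every Lenv-Treg library exceeded every Ctrl-Treg library, and each call held without any single library (adjusted p at most 0.0027).

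Ccrl2 encodes a receptor-like protein that binds chemerin and presents it to other cells, without signalling to chemokines. It was at 2.63, 4.85 and 3.91 FPKM in Lenv-Treg and at 1.40, 1.59 and 0.931 FPKM in Ctrl-Treg (2.90-fold, difference 1.04, SE 0.19, adjusted p = 0.00491). Within the receptors, Ccr1 reached 0.680, 0.859 and 0.774 of the level of Ccr2 in Lenv-Treg libraries and 0.167, 0.188 and 0.126 of it in Ctrl-Treg libraries, without overlap. In the same libraries 9 of 10 tested neutrophil markers rose, as did 8 of 16 monocyte and macrophage markers, of which 1 fell. The part of these cells in the increases of Ccr1, Ccr2 and the ligands that rose was not tested.

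**Figure D4:**
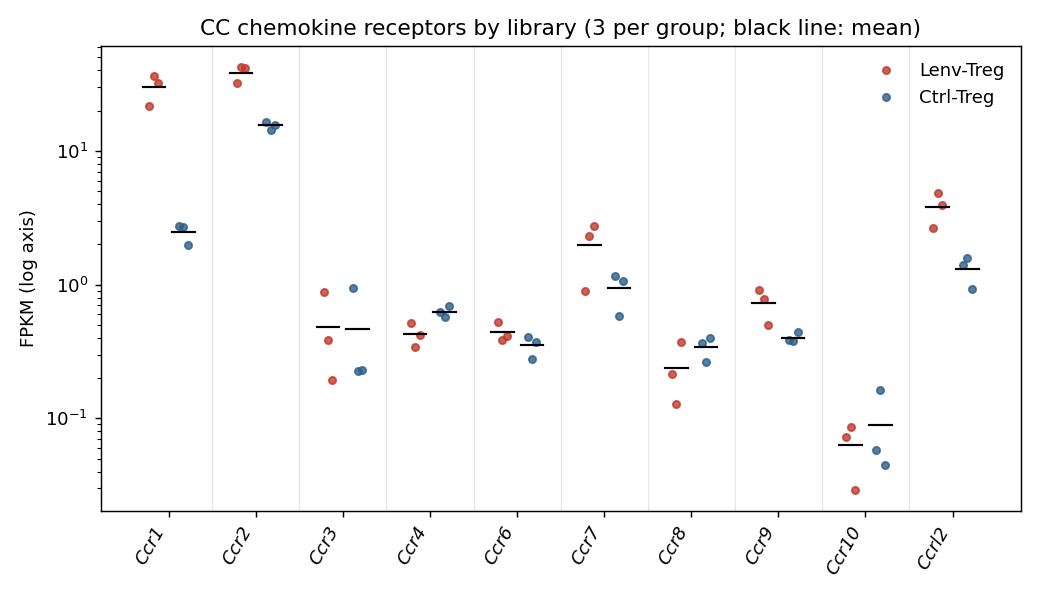
FPKM of 10 of the 11 receptors on a log axis, with 1 point per library, 3 per group, and a black line at the group mean. Ccr1 shows the widest gap, with Lenv-Treg libraries between 21.7 and 36.5 FPKM and Ctrl-Treg libraries between 1.98 and 2.75 FPKM, and the points of Ccr3, Ccr6, Ccr7, Ccr8 and Ccr10 overlap.

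Receptors of lymphocytes and dendritic cells were low and none passed. Ccr7 was at 0.899, 2.33 and 2.74 FPKM in Lenv-Treg and at 1.17, 0.582 and 1.06 FPKM in Ctrl-Treg. Its Lenv-Treg replicate 1 lay within the Ctrl-Treg range (difference 0.58, SE 0.26, adjusted p = 0.106), and without that library Ccr7 was higher (0.88, adjusted p = 0.00842). Ccr4, carried by skin-homing T cells and Tregs, was at 0.514, 0.344 and 0.419 FPKM in Lenv-Treg and at 0.621, 0.569 and 0.697 FPKM in Ctrl-Treg. The groups did not overlap, but Ccr4 did not pass (ratio of means 0.677, difference -0.19, SE 0.09, adjusted p = 0.112). It was called lower after rescaling to TPM (-0.42, adjusted p = 0.0224). Ccr8, found on skin Tregs and resident T cells, was at 0.216, 0.129 and 0.371 FPKM in Lenv-Treg and at 0.365, 0.265 and 0.402 FPKM in Ctrl-Treg, from 6 to 18 reads per library (exact permutation p = 0.3).

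Ccr9, a receptor of gut-homing lymphocytes, passed the limit on low values through the Lenv-Treg libraries alone. It was at 0.917, 0.781 and 0.5 FPKM in Lenv-Treg and at 0.385, 0.378 and 0.441 FPKM in Ctrl-Treg (difference 0.30, SE 0.11, adjusted p = 0.0608). It was called higher after scaling to equal medians of ratios (0.37, adjusted p = 0.0334), after quantile normalization (0.59, adjusted p = 0.00487) and without Lenv-Treg replicate 3 (0.40, adjusted p = 0.0246). In the annotation of the other build its exons overlap those of Slc6a20a, an amino acid transporter gene on the opposite strand. They also overlap exons of Gm17200, a non-coding RNA on the same strand, and of AC165425.1 on the opposite strand. Reads of these genes may not be told apart, and their part in the values of Ccr9 was not tested. Slc6a20a was at 5.83 ± 1.56 FPKM in Lenv-Treg and 2.10 ± 0.382 FPKM in Ctrl-Treg (SD, n = 3 each, difference 1.12). Of 9 tested T cell markers 1 rose and 2 fell, against 11.0% higher and 30.8% lower among all tested genes. Summed T cell marker levels over 11 genes were 15.9 to 23.4 FPKM in Lenv-Treg and 20.2 to 28.4 FPKM in Ctrl-Treg. Of 5 tested Treg markers 0 rose and 0 fell in limma. Summed Treg marker levels over 6 genes were 14.7 to 25.4 FPKM in Lenv-Treg and 14.7 to 17.8 FPKM in Ctrl-Treg.

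The genes were also set in their chromosomal order, as given by RefSeq for GRCm38.p6, a build other than that of the table. Of the ligands, 11 lie on chromosome 11 in 2 runs of neighbouring protein-coding genes. The run Ccl2, Ccl7, Ccl11, Ccl12, Ccl8 and Ccl1 was mixed, with 3 of 6 higher and 1 lower. The run Ccl5, Ccl9, Ccl6, Ccl3 and Ccl4 had 4 of 5 higher, and its end gene Ccl5 did not pass. On chromosome 9 Ccr2 rose beside Ccr3, which stayed outside the test. Neighbouring genes therefore did not all move alike: Ccl11, with overlapping groups, lies between the higher Ccl7 and Ccl12.

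**Figure D5:**
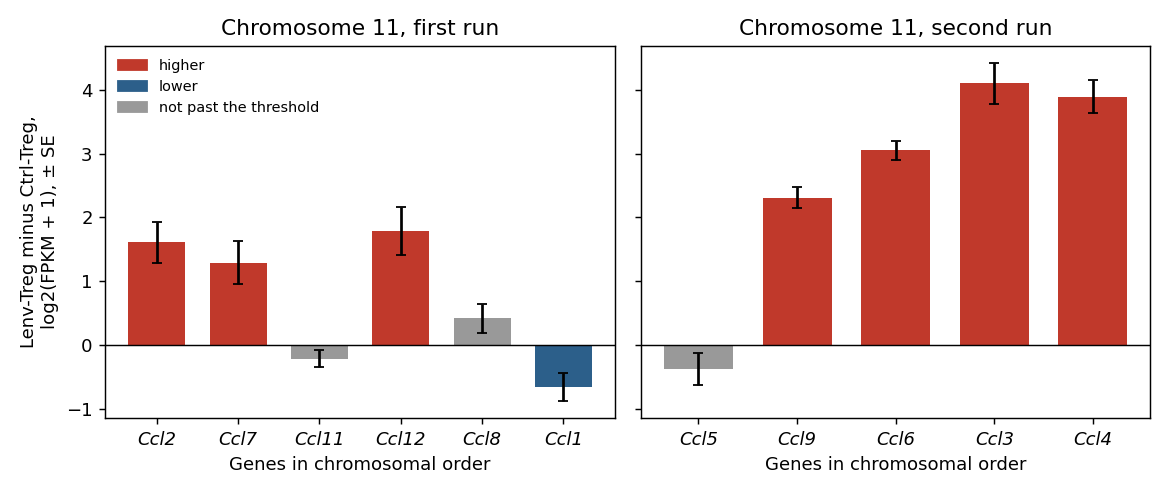
Difference between Lenv-Treg and Ctrl-Treg in log2(FPKM + 1), with standard error, for the ligands of both gene runs on chromosome 11, placed in chromosomal order without distances. In the first run 3 of 6 genes are higher, and in the second run 4 of 5, with Ccl5 at -0.38 beside Ccl9 at 2.31.

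Promoter sequences were available for 25 of the 35 members, from RefSeq, GRCm38.p6, each with 250 bases before and 50 after a start site. They are shown for Ccl3 and Ccl9, both on chromosome 11 in the run with 4 of 5 genes higher, and for Ccl20, the CCR6 ligand on chromosome 1. The last is Ccl27a on chromosome 4, the member that fell most (1 of its 3 start sites, the one with a match). All 4 promoters shown hold a match to a pattern given below. Those of the higher members Ccl6, Ccl12 and Ccr1 held no match and are not shown. Letters run 5′ to 3′ on the gene's strand, which is minus for Ccl3, Ccl9 and Ccl27a and plus for Ccl20. Capitals mark matches, on either strand, to a kB pattern (GGNNTTTCC), an interferon-stimulated response element core (GAAANNGAA) or an AP-1 pattern (TGANTCA).
Ccl3: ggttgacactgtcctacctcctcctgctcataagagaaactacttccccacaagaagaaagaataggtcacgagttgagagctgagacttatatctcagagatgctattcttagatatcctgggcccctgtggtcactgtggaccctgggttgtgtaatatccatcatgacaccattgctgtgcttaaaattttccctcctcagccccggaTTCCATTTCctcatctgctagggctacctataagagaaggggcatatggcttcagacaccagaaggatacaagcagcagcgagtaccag
Ccl9: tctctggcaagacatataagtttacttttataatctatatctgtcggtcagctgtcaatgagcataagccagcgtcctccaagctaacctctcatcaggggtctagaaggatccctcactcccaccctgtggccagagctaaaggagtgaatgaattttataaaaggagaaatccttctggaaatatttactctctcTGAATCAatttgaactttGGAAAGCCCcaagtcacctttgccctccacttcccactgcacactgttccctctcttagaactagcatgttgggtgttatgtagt
Ccl20: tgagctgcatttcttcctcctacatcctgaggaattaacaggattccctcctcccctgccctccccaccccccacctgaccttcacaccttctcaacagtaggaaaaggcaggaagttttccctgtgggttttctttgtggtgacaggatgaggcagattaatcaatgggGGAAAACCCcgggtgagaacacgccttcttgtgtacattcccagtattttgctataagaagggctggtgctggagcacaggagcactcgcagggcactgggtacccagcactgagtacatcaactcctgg
Ccl27a: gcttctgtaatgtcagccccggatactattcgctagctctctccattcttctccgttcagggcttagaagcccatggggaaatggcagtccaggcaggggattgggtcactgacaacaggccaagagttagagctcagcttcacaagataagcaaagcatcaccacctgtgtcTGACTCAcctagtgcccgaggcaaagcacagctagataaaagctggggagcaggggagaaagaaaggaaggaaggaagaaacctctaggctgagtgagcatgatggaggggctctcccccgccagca

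A kB match began 35 bases before the start site of Ccl9 and 80 before that of Ccl20. An AP-1 match began 53 bases before the start of Ccl9 and 77 before that of Ccl27a, and a response element match began 39 before that of Ccl3. No matches overlapped in these 4 promoters, although kB and response element patterns can share bases. Of the 8 higher members with a promoter, 3 held the kB pattern (Ccl9, Ccl20 and Ccrl2), 2 the response element core (Ccl3 and Ccr2) and 1 the AP-1 pattern. Of the 3 lower members, 0 held the kB pattern, 2 the response element core (Ccl1 and Ccl19) and 1 the AP-1 pattern. Of the other 14 members with a promoter, 1, 0 and 4 held the 3 patterns in the same order. Over all 32851 promoters of the same length the shares were 5.82% for kB, 8.56% for the response element core and 7.81% for AP-1. These are matches of letters in short windows, and members with several start sites had several windows.

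Other genes of the chemokine pathway moved in both directions. Of 74 tested genes on 4 lists, 19 rose and 10 fell in Lenv-Treg, against 11.0% higher and 30.8% lower among all tested genes, with a median difference of 0.10. Among 7 tested genes of atypical receptors and the chemerin axis, 2 rose and 1 fell. Rarres2, which encodes the chemerin that Ccrl2 binds, was at 355, 666 and 638 FPKM in Lenv-Treg and at 175, 127 and 135 FPKM in Ctrl-Treg (difference 1.88, SE 0.26, adjusted p = 0.00137). Cmklr2, a chemerin receptor gene, was also higher, at 2.36 ± 0.612 FPKM in Lenv-Treg and 1.12 ± 0.219 FPKM in Ctrl-Treg (SD, n = 3 each, difference 0.66). Cmklr1, another gene of the chemerin axis on this list, did not pass. Ackr4, an atypical receptor that scavenges CCL19, CCL21 and CCL25, was lower, at 2.22, 1.32 and 1.08 FPKM in Lenv-Treg and 6.34, 5.57 and 5.59 FPKM in Ctrl-Treg (difference -1.45, SE 0.16, adjusted p = 0.0006).

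In the list of receptor signalling and desensitisation, 5 of 30 tested genes rose and 1 fell. Rgs1, a GTPase activator that dampens chemokine receptor signals in leukocytes, was at 14.6, 13.7 and 18.6 FPKM in Lenv-Treg and at 3.72, 2.02 and 3.41 FPKM in Ctrl-Treg (difference 2.05, SE 0.19). Rgs2, of the same family, rose by less (0.64) and Rgs18, a regulator of haematopoietic cells, fell by 0.43. In the list of chemokine processing and presentation, 3 of 15 rose and 3 fell. The urokinase gene Plau (1.29) and the gelatinase gene Mmp9 (1.52) were higher, while Hs2st1 (-0.48), a heparan sulfate sulfotransferase, and Tpst1 (-0.54), a tyrosine sulfotransferase, were lower. Among 22 transcriptional regulators of chemokine genes, 9 rose and 5 fell. The NF-kB inhibitor gene Nfkbia (1.5) and Maff (1.02), a small Maf factor, rose, whereas the interferon pathway factor Irf7 (-2.35) fell.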

How the data were processed

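The values were FPKM as deposited by the authors, 1 table of 35434 genes by 6 libraries. Per the submitters' processing notes, GRCm39 was the build. Aligner, counting tool and annotation: not given in the sources used here. TRIzol was used for RNA extraction, per the labels' protocols. Libraries were grouped by the treatment label.

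Values of a gene are whole multiples of 1 step, which gave whole reads in all 6 libraries for 13945 of 13945 tested genes (tolerance 0.005 reads plus 1.5e-07 per read), and the depth. Genes with FPKM of at least 0.5 in at least 3 libraries were tested with limma 3.58.1 in R 4.3.3 (mean-variance trend, no covariates, two-sided, Benjamini-Hochberg, threshold 0.05) on log2(FPKM + 1), a scale that understates the change of low genes. Folds are ratios of mean FPKM. Single genes outside the test got an exact permutation test over the libraries. Alternatives covered pseudocount, limit on low values, scaling, variance model, replicate number, each library, copies summed and voom on the recovered reads. The fit was tested on simulated data.

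Members, lists, motifs and the rule for named genes (every member; per pathway list the 2 of smallest p in each direction) were chosen with earlier results of these data known. The number of reads limits the precision of genes below 0.5 FPKM. Promoters and gene order came from RefSeq (GRCm38.p6), and overlaps of exons from a GENCODE annotation of an earlier build, so no coordinates are given. Values of 1 member and of 1 pathway gene are not reported here, although both stand in the counts.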

Additional observations from a re-analysis of the deposited data

How the results depend on the processing

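Of 423 comparisons of the 25 tested members with an alternative, 385 kept direction and side of the threshold, 21 lost a call, 7 gained one and 10 changed sign, none of these with a call on either side, and 14 members changed under no alternative run. The sign changed for Ccl17 (-0.01 as reported) with a pseudocount of 0.1 (0.01), after scaling to equal medians of ratios (0.06), after quantile normalization (0.25), with voom (0.01) and without any 1 of 4 libraries (-0.11 to 0.07 over all 6 left out in turn). It also changed for Ccl22 (0.25 as reported) without Ctrl-Treg replicate 2, where leaving out libraries gave -0.11 to 0.48, and for Ccr4 after quantile normalization (0.07, against -0.19). Of the 13 higher members, 11 kept their call without any single library, Ccl7 and Ccl24 being the exceptions. With no limit on low values 11 members were higher and 1 lower. The count of lower members was 1 with that setting, after scaling to equal medians of ratios and after quantile normalization, 5 after rescaling to TPM and 1 to 4 when libraries were left out. Of these only Ccl27a fell in all alternatives. Over all tested genes, 1532 were higher and 4289 lower, against 2417 and 2417 after scaling to equal medians of ratios and 947 and 7970 after rescaling to TPM. After quantile normalization 2304 were lower, and leaving out libraries gave 2780 to 3900. Among other pathway genes, 30 were higher and 6 lower after median-ratio scaling, and 21 were lower after rescaling to TPM. The cause was not tested.

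The replicate numbers follow the order of accession. With the replicate number as a block, 13 members were higher and 3 lower, and 1637 and 4270 of all genes. Deviations of same-numbered libraries correlated at 0.20, -0.01 and 0.33. Lenv-Treg replicates 1 and 3 correlated best with their own number, and replicate 2 did not (0.05 with Ctrl-Treg replicate 1). Deviations from a mean of 3 libraries depend on each other, so these correlations cannot settle whether libraries are paired. The main fit was planned without covariates, and the libraries were not treated as pairs in it.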
